A study of Mus musculus with 47 samples.

Results

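The hippocampal transcriptome of old female mice was compared with that of young female mice 1 day after sepsis. The comparison used 8 of the 47 libraries of the series, 4 from old and 4 from young females, and the 11686 genes, of 28032 in the table, whose mean over these 8 libraries was at least 5 CPM (reads of a gene scaled to the normalised size of its library). Young mice were 3 to 5 months old and old mice 18 to 22 months old, all of the C57BL/6 strain. Septic mice of both ages had undergone cecal ligation and puncture (CLP), an operation that ties off and punctures the cecum so that gut bacteria enter the abdomen. Both groups were also given the opioid buprenorphine after surgery, the antibiotic imipenem and 1 h of cone restraint shortly before they were killed, 24 h after surgery. The control mice of each age came straight from the home cage with no surgery, anesthesia or restraint, so that every difference between day 1 and control holds the surgery, the drugs and the restraint together with the infection. The hippocampus of each mouse was 1 library of polyadenylated RNA, and males of both ages were sampled in the same way.

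Sepsis reaches the brain through cytokines in the blood, through the endothelial cells of the vessel wall and through glucocorticoids, the adrenal hormones released by stress. Microglia, the resident macrophages of the brain, and astrocytes respond to these signals with complement, acute phase and metal-binding proteins, and with age microglia in many brain regions carry a raised level of such transcripts before any challenge. Glucocorticoids enter cells, bind a receptor that then binds DNA, and raise a set of genes that includes their own brake, Fkbp5.

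Depth was close to equal in both ages. The value of a single read was estimated at 0.0323 to 0.0412 CPM, which gives about 19900000 to 24700000 reads per library, and 22830 to 24227 genes were above 0.01 CPM. Xist, the RNA of the inactive X chromosome, was at 266 to 443 CPM in the 8 libraries, as the female label requires, and was no higher than 0.158 CPM in the day 1 males. Neuronal and astrocyte markers were high in every library, as for hippocampus, with summed astrocyte markers at 3430 to 3720 CPM in young and 3810 to 4180 CPM in old females. Choroid plexus, the secretory tissue next to the hippocampus, was carried in 3 of the 8 libraries: its 12 markers summed to 1270 and 4270 CPM in young replicates 3 and 4 and to 4320 CPM in old replicate 3, against 87.9 to 282 CPM in the other 5. Red blood cell markers summed to 82.0 to 120 CPM in young and 135 to 394 CPM in old females. Neutrophil markers summed to 3.10 to 5.39 CPM in young and 5.04 to 11.7 CPM in old females, and lymphocyte and monocyte markers were at most 1.54 CPM in any of the 8. The young female control replicate 2 stood apart from the other controls, with Xist at 93.4 CPM. In tissue of mixed cells, fewer cells of a type and less RNA per cell cannot be told apart.

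The 2 ages differed over a large part of the transcriptome 1 day after sepsis. At the threshold of the study, an unadjusted p below 0.01, 2463 of 11686 genes were called, or 21.1%. Of these, 1227 (10.5%) were higher and 1236 (10.6%) lower in old females, so that neither direction prevailed in this fit. With the Benjamini-Hochberg adjusted p below 0.05 the count was 2558 (21.9%), and for 2923 genes (25.0%) the 4 old and the 4 young libraries did not overlap. The adjusted count fell to 1267 without young replicate 1, to 1609 without young replicate 4 and to 1657 without old replicate 4. The count at unadjusted p was 1269 without the 3 libraries that carried choroid plexus, which left 2 young and 3 old libraries. The split by direction moved with the scaling and the libraries. With the libraries rescaled by the median of ratios 1156 genes were higher and 1377 lower. Without old replicate 1 these were 932 and 1144, and without old replicate 2 they were 1484 and 1246. On the first principal component, which held 45.4% of the variance, young libraries lay between -22.1 and -12.3 and old libraries between 10.2 and 26.1. Here and below a difference is the mean of log2(CPM + 1) in old minus that in young females, given with its standard error (SE), and "called" means a limma p below 0.01 over 4 against 4 libraries. All genes called at this threshold also had an adjusted p below 0.05.

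**Figure D1:**
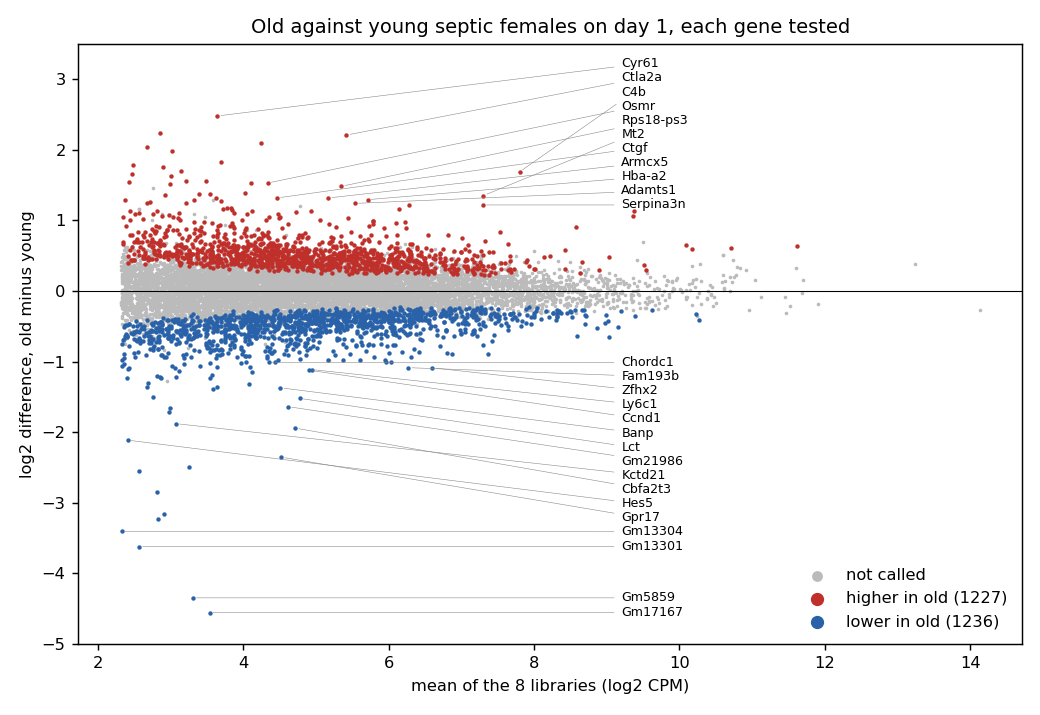
Each point is 1 of the 11686 genes, with its mean over the 8 libraries in log2 CPM on the x axis and the log2 difference between old and young septic females on the y axis. Red and blue points are the 1227 genes called higher and the 1236 called lower in old females, and the labels mark genes described in the text, from Cyr61 at 2.48 to Gm17167 at -4.56.

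The same comparison in unoperated females gave far fewer calls. Between old and young control females 161 genes were called (1.38%), 100 higher and 61 lower, and 15 passed the adjusted p. The test of whether the age difference on day 1 differed from that in controls (age by sepsis) called 1024 genes (8.76%), 457 with a contrast above 0 and 567 below 0. Of the 2463 genes called on day 1, 69 were also called in controls, which is 2.80% of the former and 42.9% of the latter, and 64 of the 69 went in the same direction. Between old and young males on day 1, 390 genes were called (3.34%), 150 higher and 240 lower (206 and 208 with the libraries rescaled by the median of ratios), and 6 passed the adjusted p. The test of whether the age difference on day 1 differed between females and males (age by sex) called 1353 genes (11.6%), 684 above 0 and 669 below 0 (592 and 824 with the median of ratios). The genes called in females and in males on day 1 overlapped by 124, which is 5.03% of the female and 31.8% of the male calls, with 112 in the same direction. The male count rose to 663 without young male replicate 3 and fell to 206 without old male replicate 1 and to 249 without old male replicate 2. The control count fell to 71 without old control replicate 1 and to 76 without old control replicate 2, and rose to 248 without old control replicate 4.

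Old females on day 1 also lay outside the range of the whole series more often than any other group. For 345 genes (2.95%) all 4 of their libraries were above each of the other 43, and for 343 genes (2.94%) all 4 were below. In the other 11 groups these counts were 0 to 8 and 0 to 22, with the highest of both in old males on day 1. The genes were chosen by their mean in day 1 females. A low gene high in old day 1 females alone could thus enter, while one high in a male, control or day 4 group alone was left out. The counts of highest genes are therefore not on equal terms between groups.

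**Figure D2:**
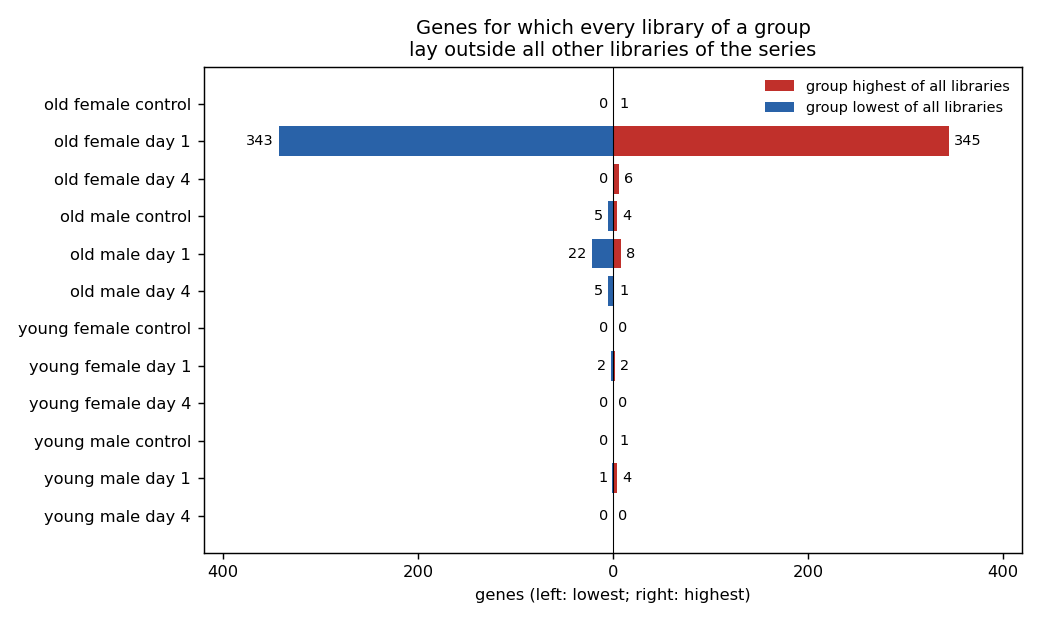
Bars give, for each of the 12 groups, how many of the 11686 genes had every library of that group above all other libraries of the series (red, to the right) or below all of them (blue, to the left). Old females on day 1 stood at 345 and 343 genes, and the other groups at no more than 8 and 22. The genes were chosen by their mean in day 1 females, which can leave out low genes high in another group alone.

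The 10 genes with the largest increase and a mean of at least 20 CPM were Ctla2a, C4b, Osmr, Rps18-ps3, Mt2, Ctgf, Armcx5, Hba-a2, Adamts1 and Serpina3n. Ctla2a (chr13:60934155-60936625, minus strand, GRCm38), which encodes an inhibitor of cysteine proteases, was at 9.37, 21.8, 14.0 and 14.4 CPM in young and 79.0, 78.2, 74.7 and 50.9 CPM in old females. The groups did not overlap, the difference was 2.21 ± 0.21 (adjusted p = 0.000206), and the gene was at 1.56 to 3.80 CPM in all 8 control females. The age by sepsis contrast of Ctla2a was 2.42 and its age by sex contrast 1.72, both called. Exons of Gm49391 on the same strand covered 16.3% of its exon length, so a part of these reads could belong to either gene.

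C4b (chr17:34728380-34743882, minus strand), complement component C4, was at 99.9, 102, 111 and 103 CPM in young and 334, 390, 392 and 254 CPM in old females. The old libraries were all above the young ones, by 1.69 ± 0.12 (adjusted p = 3.31e-05). C4b already differed in controls, with 40.4 to 86.9 CPM in young and 255 to 351 CPM in old females, and its age by sepsis contrast of -0.57 was not called.

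Osmr (chr15:6813577-6874969, minus strand), the receptor chain for the cytokine oncostatin M, was at 11.6, 8.26, 10.4 and 9.10 CPM in young and 40.0, 29.6, 25.5 and 27.2 CPM in old females. The difference was 1.53 ± 0.15 (adjusted p = 0.000206), with no overlap. Young males on day 1 were at 11.4 to 15.1 CPM and old males at 10 to 15 CPM, and the age by sex contrast of Osmr was 1.64. Serpina3n, a secreted inhibitor of serine proteases that astrocytes raise in inflammation, was at 88.9, 85.8, 102 and 92.0 CPM in young and 265, 223, 262 and 140 CPM in old females, a difference of 1.22 ± 0.17 (adjusted p = 0.00116). Old replicate 4 was the lowest of the old libraries for Ctla2a, C4b and Serpina3n and still above every young library.

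Matrix and blood genes were also among the 10. Adamts1, a secreted protease that cleaves matrix proteoglycans, was at 24.7, 25.9, 30.9 and 27.1 CPM in young and 71.5, 67.4, 67.3 and 56.2 CPM in old females, and the difference was 1.24 ± 0.10 (adjusted p = 5.11e-05). Ctgf, a matrix-bound growth modulator, was at 8.03 to 12.6 CPM in young and 14.3 to 64.0 CPM in old females, a difference of 1.32 ± 0.34, with old replicate 2 far above the others. Ctgf was not called without the libraries that carried choroid plexus. Hba-a2, an alpha globin of red blood cells, was at 22.0, 27.4, 25.8 and 41.0 CPM in young and 73.3, 46.0, 123 and 60.1 CPM in old females, a difference of 1.29 ± 0.26. All 3 of the red blood cell markers called on day 1 were higher in old females. With a test on the spread of each gene alone (the unmoderated F test), or with all 12 groups in 1 fit, 0 were called. The markers of this list summed to 134 to 422 CPM in young and 144 to 381 CPM in old controls. The young septic females thus held the lowest values of the 4 groups. How much blood was left in each hippocampus was not tested.

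The other 3 of these 10 genes were Mt2, described with the metallothioneins, Armcx5 and Rps18-ps3. Armcx5, an X-linked gene of the armadillo repeat family, was at 17.4 to 24.1 CPM in young and 43.7 to 58.5 CPM in old females, a difference of 1.32 ± 0.13 (adjusted p = 0.000206), and at 13.8 to 18.5 CPM in the 8 controls. Rps18-ps3 is a pseudogene of the ribosomal protein gene Rps18 and could share reads with it, so its difference of 1.48 ± 0.21 is uncertain. Among genes below 20 CPM, chosen after their values were seen, the largest increase was that of Cyr61, a matrix protein of the same family as Ctgf, at 2.31, 4.60, 2.28 and 2.55 CPM in young and 33.8, 27.4, 14.4 and 12.7 CPM in old females (2.48 ± 0.29, adjusted p = 0.000407). Cyr61 was at 2.65 to 4.87 CPM in all 8 controls and at 1.98 to 3.23 CPM in all 8 males on day 1, so that its high values were found in old septic females alone among these 6 groups. Cd14, the lipopolysaccharide co-receptor of innate immunity, was at 4.73 to 7.74 CPM in young and 49.4, 47.5, 13.8 and 17.4 CPM in old females (2.10 ± 0.36, adjusted p = 0.00271), with the old libraries in a high and a low pair. Plaur, the urokinase receptor, was at 1.74 to 3.6 CPM in young and 10.3 to 18.8 CPM in old females (1.98 ± 0.20), and Tlr7, a sensor of single-stranded RNA, at 1.97 to 2.46 and 6.13 to 10.9 CPM (1.66 ± 0.17). Cyr61, Plaur and Tlr7 were below 5 CPM in every young library and passed the filter through the old libraries.

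Among the 10 genes with the largest decrease and a mean of at least 20 CPM were regulators of transcription and markers of several cell types. Cbfa2t3 (chr8:122625141-122699109, minus strand), a transcriptional corepressor, was at 42.1, 37.0, 48.0 and 42.1 CPM in young and 11.1, 11.4, 9.09 and 9.38 CPM in old females. This difference of -1.94 ± 0.11 had the smallest adjusted p of the 20 genes with the largest changes (2.01e-06), and no old library came near the young ones. Control females were at 32.5 to 76.0 CPM when young and 29.8 to 36.8 CPM when old, day 1 males at 28.5 to 38.1 and 25.3 to 32.0 CPM, and both contrasts of Cbfa2t3 were called (age by sepsis -1.52, age by sex -1.79). Gpr17 (chromosome 18), a receptor of oligodendrocyte precursors on their way to maturity, was at 38.8, 35.9, 43.1 and 37.4 CPM in young and 3.42, 9.21, 10 and 6.28 CPM in old females, a difference of -2.35 ± 0.23 (adjusted p = 0.000228). Gpr17 was also lower with age in control females, by -0.82, and in males on day 1, by -0.94, and its age by sepsis contrast of -1.53 and age by sex contrast of -1.41 were called. Lct (chr1:128284756-128328318, minus strand), which encodes lactase and serves as a marker of dentate granule cells, was at 47.8, 38.3, 37.4 and 39.4 CPM in young and 13.5, 16, 18.4 and 8.14 CPM in old females (-1.52 ± 0.20, adjusted p = 0.000667). The other 6 tested markers of dentate granule cells were not called.

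Banp (chr8:121949750-122029258, plus strand), a nuclear protein that binds unmethylated promoters, was at 35.4, 31.6, 34.4 and 32.0 CPM in young and 14.2, 12.9, 11.7 and 10.5 CPM in old females (-1.37 ± 0.10, adjusted p = 3.47e-05). The 8 control females lay between 24.1 and 32.4 CPM and the 8 day 1 males between 24.2 and 34.6 CPM, so Banp was low in old septic females alone among these groups. Ccnd1, the G1 cyclin D1, was at 39.3, 34.1, 52.1 and 40.9 CPM in young and 18.4, 19.6, 20.1 and 15.6 CPM in old females (-1.12 ± 0.13), although exons of LTO1 on the other strand covered 23.4% of its length. Ly6c1, a surface protein of brain endothelium, was at 35.1 to 54.2 CPM in young and 14.3 to 22.2 CPM in old females (-1.11 ± 0.15). Zfhx2, a homeobox transcription factor of neurons, and Fam193b were lower by -1.09 ± 0.14 and -1.09 ± 0.11. The transcript Gm21986 (-1.64 ± 0.35) shared 82.2% of its exon length with Nlgn3 on the same strand, so its reads could not be assigned to it alone.

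Chordc1, a co-chaperone of Hsp90, was at 24.9, 28.3, 25.8 and 31.7 CPM in young and 12, 12.4, 15.3 and 13.1 CPM in old females (-1.01 ± 0.11, adjusted p = 0.000317). In control females old libraries lay above young ones, with 31.4 to 34.5 CPM in young and 35.0 to 51.2 CPM in old, a difference that was not called, and the age by sepsis contrast was -1.34. Outside the 20 CPM limit, and chosen after their values were seen, Kctd21, an adaptor of a ubiquitin ligase, was at 15.3, 12.7, 13.6 and 13.3 CPM in young and 1.69, 2.74, 4.82 and 3.33 CPM in old females (-1.88 ± 0.20), against 12.5 to 16.5 CPM in the 8 controls. Hes5, a Notch target of neural stem cells and astrocytes, was at 9.92, 11.1, 7.09 and 8.78 CPM in young and 1.18, 1.0, 1.10 and 2.25 CPM in old females (-2.11 ± 0.19, adjusted p = 0.000152), although an antisense gene covered 31.8% of its exons.

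**Figure D3:**
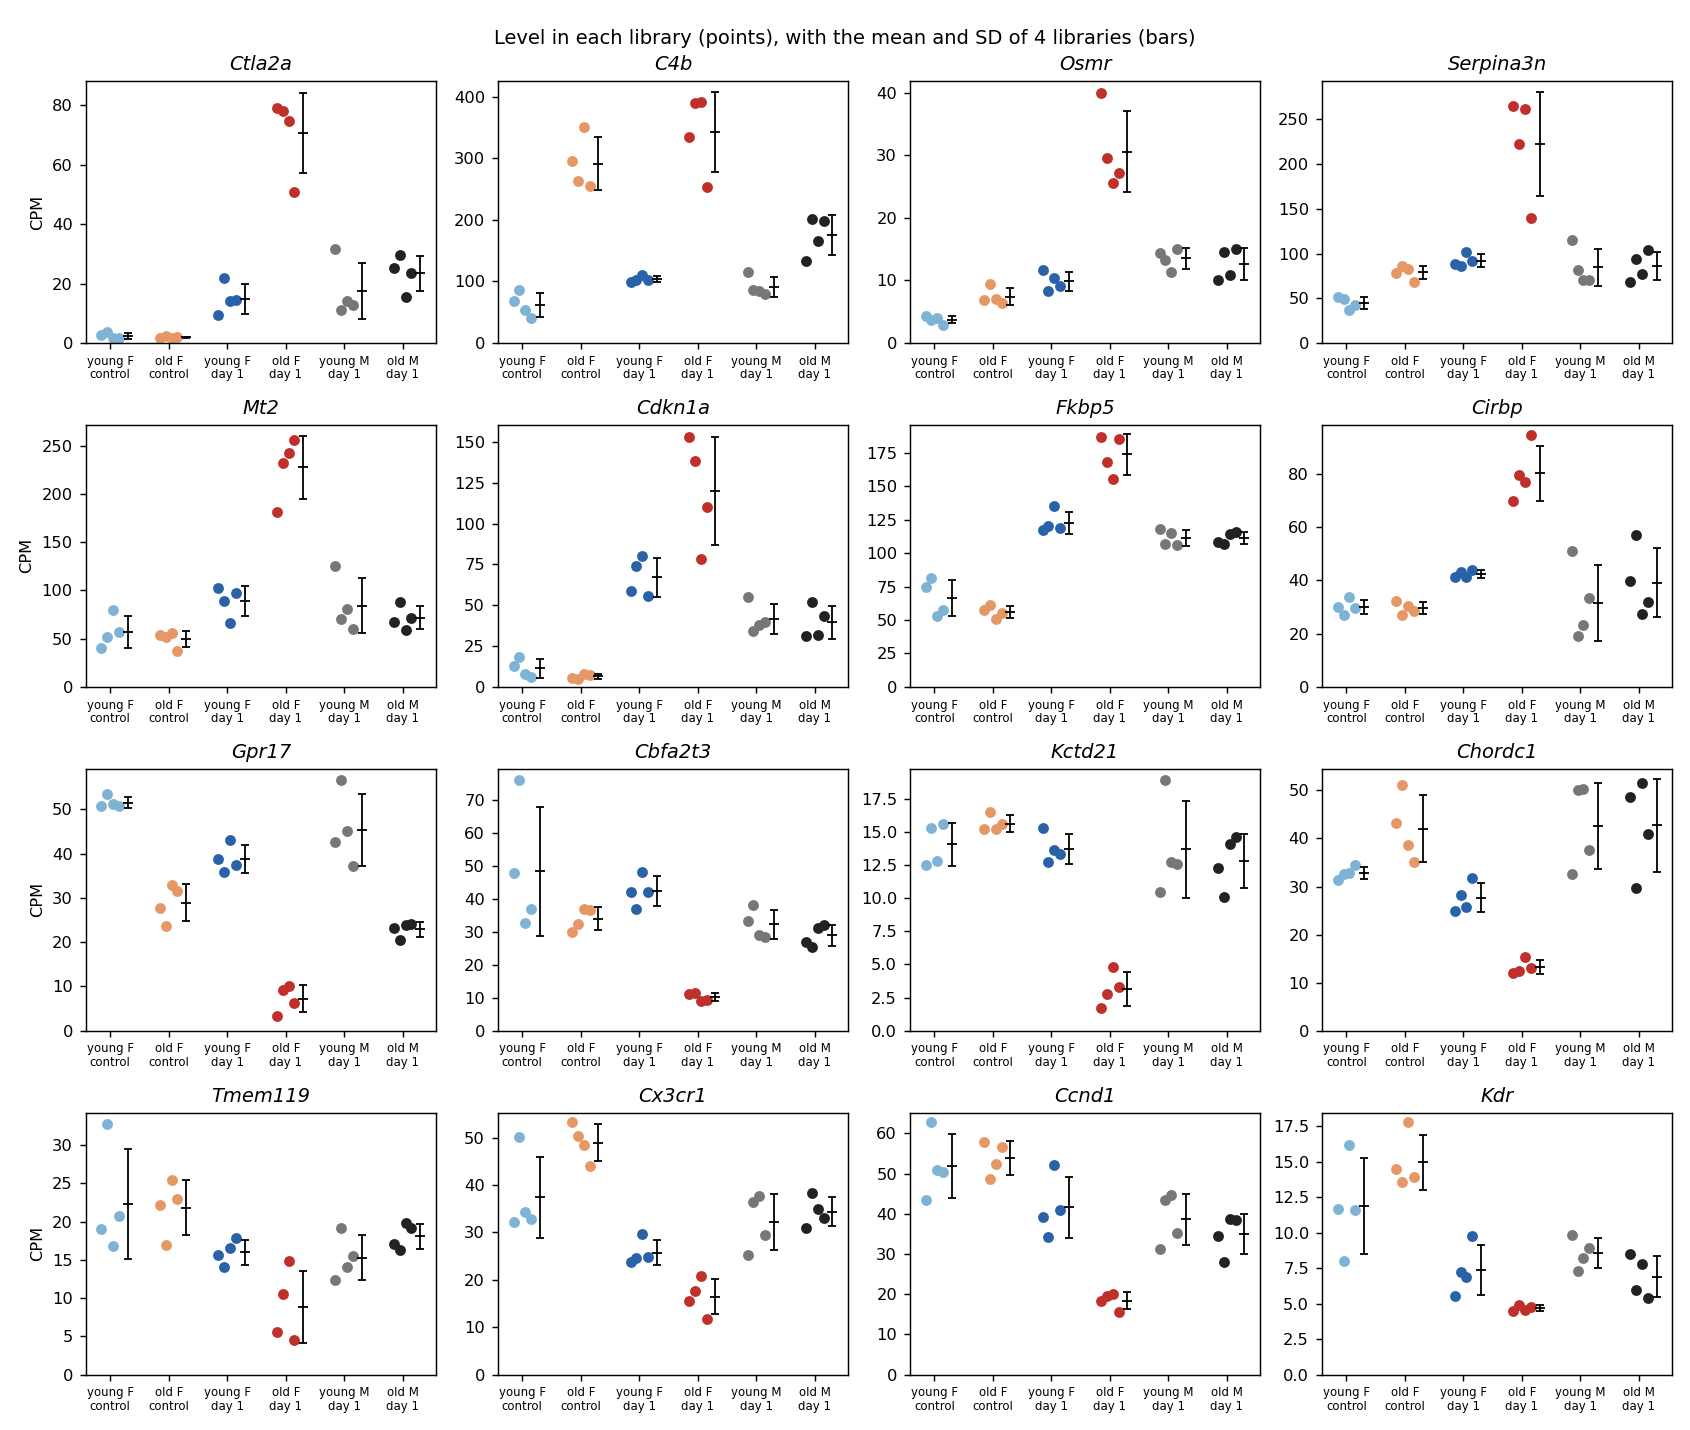
Levels in CPM of 16 genes in the 4 libraries of each of 6 groups (control and day 1 females and day 1 males, young and old), with bars for the mean and SD of 4 libraries. Ctla2a, Osmr, Mt2 and Cirbp were high and Cbfa2t3, Kctd21, Chordc1 and Ccnd1 low in old day 1 females, while young and old day 1 males overlapped for Ctla2a, Osmr, Mt2, Cbfa2t3 and Kctd21.

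Promoters are shown for 4 of the named genes with the largest differences, Gpr17, C4b and Gm21986 left out. They run from 250 bases before to 50 bases after the RefSeq start on GRCm38.p6, 5′ to 3′ on the strand of the gene. Of the 11686 genes, 8742 had such a promoter. The letters searched on both strands were GNACA and TGTNC set 3 bases apart for a glucocorticoid response element, TGCNCNC for the core of a metal response element, TTCNNNGAA for a STAT site, TGANTCA for an AP-1 site and CACGTG for an E-box, and capitals mark the matches. The windows lie at chr13:60936576-60936875 (Ctla2a), chr8:122699060-122699359 (Cbfa2t3), chr15:6874264-6874563 (Osmr) and chr1:128328269-128328568 (Lct), all on the minus strand. The RefSeq start of Osmr lies 656 bases inside the gene as annotated above, so its window is not upstream of that annotated start.
Ctla2a: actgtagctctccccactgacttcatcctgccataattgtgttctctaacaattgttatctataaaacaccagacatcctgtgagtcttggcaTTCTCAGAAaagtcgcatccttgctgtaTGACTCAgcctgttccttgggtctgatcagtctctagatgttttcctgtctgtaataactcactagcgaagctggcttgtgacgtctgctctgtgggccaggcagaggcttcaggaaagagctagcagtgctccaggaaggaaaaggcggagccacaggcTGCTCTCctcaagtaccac
Cbfa2t3: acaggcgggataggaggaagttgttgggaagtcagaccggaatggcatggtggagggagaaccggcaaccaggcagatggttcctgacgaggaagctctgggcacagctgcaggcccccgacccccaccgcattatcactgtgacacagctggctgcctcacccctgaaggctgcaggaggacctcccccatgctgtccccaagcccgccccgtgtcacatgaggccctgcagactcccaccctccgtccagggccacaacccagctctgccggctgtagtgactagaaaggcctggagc
Osmr: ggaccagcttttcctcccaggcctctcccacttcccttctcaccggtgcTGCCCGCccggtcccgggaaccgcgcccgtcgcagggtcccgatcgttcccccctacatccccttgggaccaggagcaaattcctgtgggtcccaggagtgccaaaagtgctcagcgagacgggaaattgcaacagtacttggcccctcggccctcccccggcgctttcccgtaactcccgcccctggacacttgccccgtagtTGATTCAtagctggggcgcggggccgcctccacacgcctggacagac
Lct: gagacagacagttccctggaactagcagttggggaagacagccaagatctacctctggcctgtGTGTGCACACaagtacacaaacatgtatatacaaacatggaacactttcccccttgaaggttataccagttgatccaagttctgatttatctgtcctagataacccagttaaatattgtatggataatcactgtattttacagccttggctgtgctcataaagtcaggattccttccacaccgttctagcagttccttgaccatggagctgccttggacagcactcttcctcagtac
The window of Ctla2a held 1 STAT site, 1 AP-1 site and 1 metal response core, that of Osmr 1 metal response core and 1 AP-1 site, that of Lct 2 overlapping metal response cores and that of Cbfa2t3 none of the letters searched. STAT sites stood in 6.27%, AP-1 sites in 4.18% and metal response cores in 62.0% of all 8742 promoters. The STAT share was 6.65% among genes called higher and 4.96% among those called lower in old females.

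Of the genes induced by glucocorticoids more were higher than lower in old females. The day 1 female counts of this and of each later list stand beside 10.5% of all genes called higher and 10.6% called lower. Over both directions, 8.76% of all genes were called in age by sepsis and 11.6% in age by sex. In control females this share was 1.38% and in day 1 males 3.34%. Of 18 such genes, which the study named from these samples and which are therefore no independent evidence of direction, 10 were called higher and 1 lower, against 10.5% and 10.6% of all genes, and their median difference was 0.36, beside 0.03 for all genes tested. The median was -0.16 in control females and -0.02 in day 1 males, and 7 of the 18 were called above 0 and 0 below 0 in each of age by sepsis and age by sex. Both contrasts hold the same day 1 female libraries and are no independent evidence of direction either. Fkbp5, a co-chaperone that restrains the glucocorticoid receptor, was at 117, 120, 135 and 119 CPM in young and 187, 168, 155 and 185 CPM in old females (0.49 ± 0.09, adjusted p = 0.00288). Control females were at 53 to 81.1 CPM when young and 50.7 to 60.9 CPM when old, so Fkbp5 was above the controls in both septic groups and highest in the old. Nfkbia, the inhibitor of NF-kappaB, was at 31.1 to 34.1 CPM in young and 44.4 to 56.2 CPM in old females (0.56 ± 0.09), and Klf9, a hormone-responsive transcription factor, at 150 to 152 and 180 to 208 CPM (0.36 ± 0.07). Cdkn1a, the cell cycle inhibitor p21, had the largest difference of the list at 0.80 ± 0.19 (adjusted p = 0.0130), with 58.5, 74.2, 80.0 and 55.7 CPM in young and 153, 138, 78.2 and 110 CPM in old females, so that old replicate 3 lay within the young range. Rhou (0.52 ± 0.08) and Errfi1 (0.48 ± 0.11) were also higher, and Wipf3, a regulator of actin, was the member called lower (-0.35 ± 0.08). Sgk1 (0.34 ± 0.13), Tsc22d3 (0.40 ± 0.21), Ddit4, Klf15, Gjb6, Sdc4 and Sult1a1 were not called. The count of 10 fell to 6 without young replicate 1 and to 6 without young replicate 4, and Arhgef3, Arl4d, Pdk4 and Sesn1 were called in neither of these fits.

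Metallothioneins and genes of the oxidative stress response followed. Of 23 genes 22 were tested, 8 were called higher and 0 lower, and the median difference was 0.29 (0.06 in control females, -0.04 in day 1 males). Mt2, a small protein that binds zinc and copper, was at 103, 89.0, 66.6 and 97.3 CPM in young and 181, 232, 242 and 256 CPM in old females (1.35 ± 0.14, adjusted p = 0.000288), although the antisense gene Gm45774 covered 73.5% of its exons. Its neighbour Mt1, with no such overlap, was at 338, 330, 160 and 260 CPM in young and 482, 530, 503 and 444 CPM in old females (0.90 ± 0.19, adjusted p = 0.00831). Both were above all 8 control females, which reached 80.1 CPM for Mt2 and 208 CPM for Mt1, in every old library. Hmox1, heme oxygenase 1, was at 5.70 to 7.30 CPM in young and 8.57 to 14.8 CPM in old females (0.75 ± 0.15). Txnip, an inhibitor of thioredoxin whose exons an antisense gene covered by 19.4%, was at 27.8 to 40.9 CPM in young and 42.9 to 108 CPM in old females (0.95 ± 0.26), and was not called without young replicate 1 or old replicate 2. Prdx1 (0.61 ± 0.14), Gclc (0.55 ± 0.12), Gpx4 (0.61 ± 0.19) and Sod1 (0.36 ± 0.08) were the other called members. Without the choroid-carrying libraries 5 of the 8 calls were made.

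The promoters of this metallothionein pair, chosen for display after their values were seen, lie at chr8:94178839-94179138 (Mt1) and chr8:94172368-94172667 (Mt2), both on the plus strand.
Mt1: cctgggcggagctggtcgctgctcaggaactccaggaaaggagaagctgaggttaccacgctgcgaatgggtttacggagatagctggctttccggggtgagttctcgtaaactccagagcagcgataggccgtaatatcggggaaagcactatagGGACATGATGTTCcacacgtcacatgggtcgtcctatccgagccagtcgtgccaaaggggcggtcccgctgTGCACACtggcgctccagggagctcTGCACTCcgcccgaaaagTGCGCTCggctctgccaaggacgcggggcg
Mt2: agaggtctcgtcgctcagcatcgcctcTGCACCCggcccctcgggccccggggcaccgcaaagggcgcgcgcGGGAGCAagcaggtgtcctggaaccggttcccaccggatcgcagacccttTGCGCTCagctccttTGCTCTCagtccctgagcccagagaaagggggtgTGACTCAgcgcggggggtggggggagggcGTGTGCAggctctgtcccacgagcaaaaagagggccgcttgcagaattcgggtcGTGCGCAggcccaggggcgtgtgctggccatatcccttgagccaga
The window of Mt1 held 1 glucocorticoid response element and 3 metal response cores, and that of Mt2 held 6 metal response cores and 1 AP-1 site. The glucocorticoid letters stood in 22 of 8742 promoters (0.252%), in 8 of 932 promoters of genes called higher (0.858%: Amy1, Cpxm1, Jund, Map3k6, Mt1, Serpina3n, Stx17 and Txnip), in 2 of 928 of those called lower (0.216%) and in 0 of the 18 genes of the glucocorticoid list. A match of letters is not a site, and none of these shares was tested.

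Of cytokine signalling and acute phase genes more were called higher than lower, and most were not called. Of 39 genes 29 were tested, 11 were called higher, 2 lower and 16 not, with a median of 0.31 (0.12 in control females, -0.11 in day 1 males, where 0 were called higher and 4 lower). In age by sex 11 of the 29 were called above 0 and 1 below 0, beside 684 and 669 of all 11686 genes. Besides Osmr and Serpina3n, Socs3, a feedback inhibitor of cytokine receptors, was at 12.6, 6.73, 10 and 6.42 CPM in young and 28.7, 21.3, 19.0 and 12.8 CPM in old females (1.10 ± 0.24, adjusted p = 0.00910). Stat3, the transcription factor below the interleukin 6 family of receptors, was at 61.6 to 71.8 CPM in young and 88.9 to 113 CPM in old females (0.59 ± 0.09), and at 49.5 to 65.2 CPM in all 8 day 1 males. Cebpd, an acute phase transcription factor, was at 11.3 to 16.7 CPM in young and 21.8 to 37.4 CPM in old females (1.03 ± 0.16). The other members called higher were Cebpb, Fcgr3, Il17ra, Lcn2, Sbno2 and Tnfrsf1a. Lcn2, a protein that withholds iron from bacteria, was at 25.1, 25.5, 32.3 and 21.5 CPM in young and 37.5, 104, 74.0 and 29.4 CPM in old females (1.04 ± 0.32), overlapping the young range in old replicate 4. Control females held at most 1.01 CPM of Lcn2, and day 1 males were at 98.1, 25.7, 24.5 and 23.6 CPM when young and 7.67 to 25.6 CPM when old, which gave its age by sex contrast of 2.44. The Lcn2 call was lost without any of 5 libraries (young replicates 1, 2 and 4, old replicates 2 and 3). The kinases Jak3 (-0.52 ± 0.16) and Tyk2 (-0.59 ± 0.10) were lower, although Jak3 was not called when young replicate 1, 2 or 3 or old replicate 1 or 4 was left out. Of the interferon response, 8 of 24 genes were tested and 1 was called, Ifit3, at 2.03 to 3.49 CPM in young and 6.05 to 10.7 CPM in old females (1.14 ± 0.19). Ifit3 was below 5 CPM in every young library, so it passed the filter through the old females in which it was high.

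Complement and activated microglia genes were higher in old females with and without sepsis. Of 24 genes 17 were tested, 10 were called higher on day 1 and 10 in controls, with 0 lower in either, and the median was 0.68 on day 1, 0.71 in controls and 0.05 in day 1 males. Despite this male median, 4 of the 17 were called higher and 0 lower in day 1 males, beside 150 and 240 of all 11686 genes. In age by sex 6 were called above 0 and 0 below 0. None of the 17 was called in age by sepsis, in either direction, so the difference by age in females was not shown to change with sepsis. Ctss, a lysosomal protease of microglia, was at 33.1, 45.4, 32.8 and 33.2 CPM in young and 101, 68.9, 75.7 and 51.9 CPM in old females on day 1 (1.0 ± 0.18, adjusted p = 0.00322), and at 25.1 to 44.0 and 51.5 to 65.6 CPM in controls. Trem2, a lipid receptor of microglia, was at 3.96 to 5.15 CPM in young and 7.17 to 12.7 CPM in old females on day 1 (0.91 ± 0.16), below the control levels of 7.42 to 11.1 and 15 to 18.9 CPM. Lyz2, lysozyme, was at 3.54 to 6.72 and 9.31 to 25.5 CPM (1.55 ± 0.26). C1qc (0.66 ± 0.17) was called, C1qa (0.34 ± 0.14), C1qb (0.39 ± 0.20) and C3 (0.69 ± 0.39) were not, although without old replicate 4 both C1qa and C1qb were. The other called members were Apoe, B2m, Cd68, H2-D1 and H2-K1. Apoe, the lipid carrier of astrocytes and microglia, was at 914 ± 73 CPM (SD, n = 4) in young and 1380 ± 180 CPM in old females.

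Of the markers of resting microglia more were called lower than higher. Of 11 markers 7 were tested, and 4 were called lower and 1 higher, the latter by 0.45. The median was -0.62, beside 0.19 in control females and 0.20 in day 1 males. Tmem119, a membrane protein of resident microglia, was at 15.6, 14.0, 16.5 and 17.9 CPM in young and 5.62, 10.5, 14.8 and 4.58 CPM in old females (-0.91 ± 0.27, adjusted p = 0.0344), with old replicate 3 inside the young range. Olfml3 was at 9.26, 9.30, 11.3 and 11.6 CPM in young and 2.67, 6.94, 5.04 and 2.02 CPM in old females (-1.24 ± 0.26), and Cx3cr1, the fractalkine receptor, at 23.7 to 29.6 and 11.8 to 20.8 CPM (-0.63 ± 0.15). Sall1, a transcription factor of microglial identity, was lower by -0.38 ± 0.12, while Csf1r, the survival receptor of microglia, was not called (0.06 ± 0.12). In control females Cx3cr1 was at 32.2 to 50.1 CPM in young and 43.9 to 53.2 CPM in old. In age by sex 5 of the 7 markers were called below 0 and 0 above, beside 669 and 684 of all 11686 genes. The count of 4 fell to 2 without young replicate 1, young replicate 3 or old replicate 4. With the unmoderated F test 1 was called lower and 0 higher. The summed markers lay at 202 to 219 CPM in young and 162 to 240 CPM in old females.

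**Figure D4:**
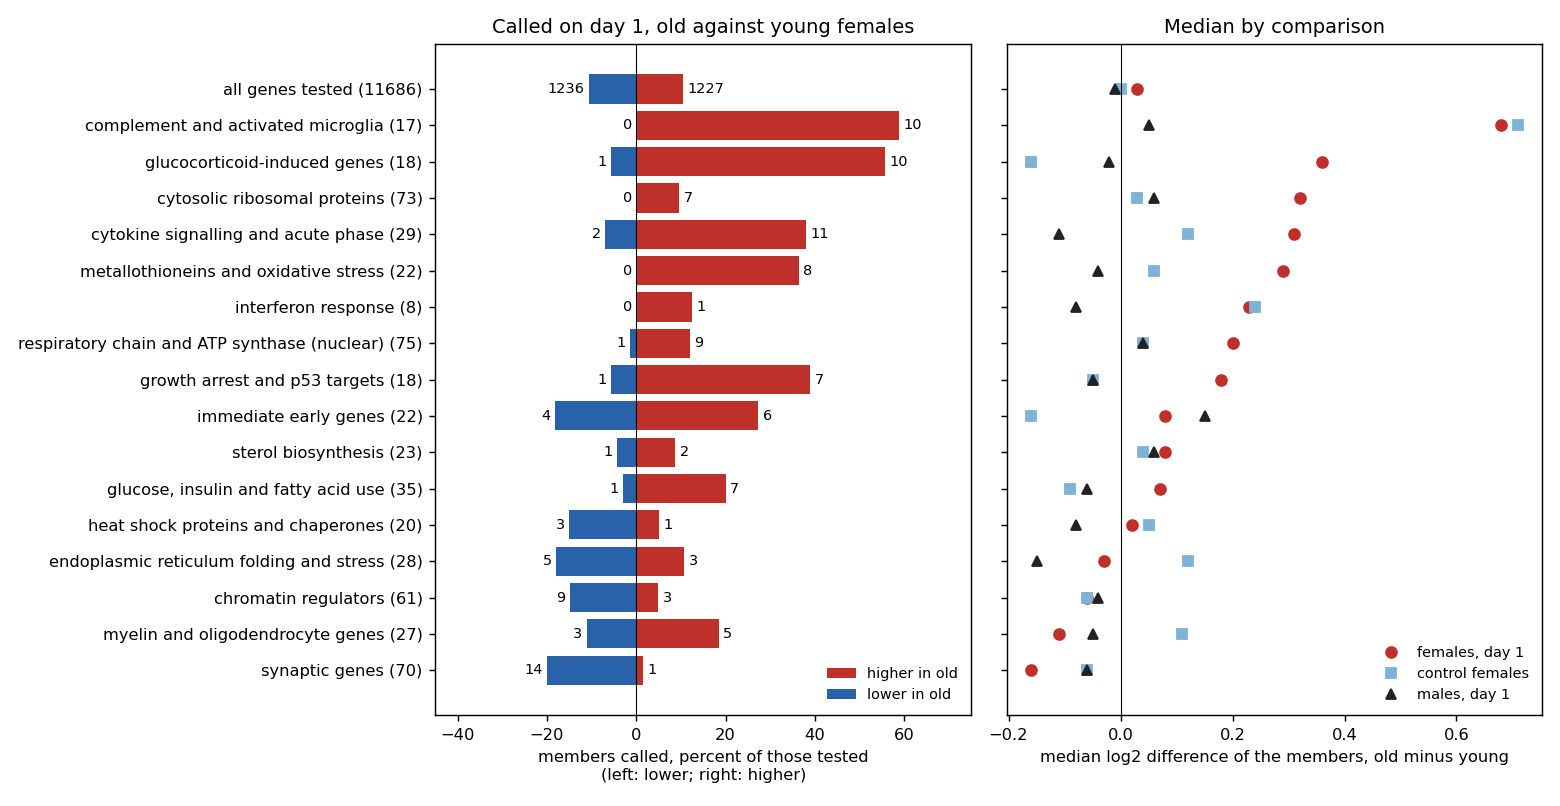
On the left, the share of tested members of each of 16 gene lists, and of all 11686 genes, called higher (red, to the right) or lower (blue, to the left) in old day 1 females, with the counts printed and the number tested in brackets. On the right, the median log2 difference of the same members in day 1 females, control females and day 1 males. The complement list stood at 0.68 and 0.71 in the female groups, while the glucocorticoid list stood at 0.36 on day 1 and -0.16 in controls.

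Growth arrest genes and immediate early genes split by gene. Of 18 tested growth arrest genes and targets of p53, 7 were called higher and 1 lower (median 0.18). Trp53inp1, a stress-induced partner of p53, was at 5.53 to 7.59 CPM in young and 12.1 to 15.1 CPM in old females (0.98 ± 0.12, adjusted p = 0.000649). Besides Cdkn1a, the other members called higher were Btg2, Gadd45b, Gadd45g, Sesn1 and Sesn2, while Zmat3, an RNA-binding target of p53, was at 57.7 to 63.0 CPM in young and 40.6 to 45.2 CPM in old females (-0.51 ± 0.08). The count of 7 fell to 4 without young replicate 4 and to 3 without the choroid-carrying libraries. Of 22 tested immediate early genes, the first transcripts that neurons and other cells make on activation, 6 were higher and 4 lower. Fos was at 5.68, 9.13, 10.3 and 8.20 CPM in young and 30.9, 23.2, 11.6 and 16.3 CPM in old females (1.15 ± 0.26, adjusted p = 0.0101), and Dusp1, a phosphatase that ends MAP kinase signalling, was at 9.96 to 17.6 and 22.8 to 31.3 CPM (1.04 ± 0.16). In contrast Nr4a3, an orphan nuclear receptor of active neurons, was at 45.8, 53.1, 65.4 and 60.8 CPM in young and 34.6, 33.8, 33.9 and 33.6 CPM in old females (-0.70 ± 0.11), and Nr4a2 (-0.61 ± 0.09), Egr3 (-0.48 ± 0.10) and Fosl2 (-0.62 ± 0.13) were also lower. Junb, Jund, Klf6 and Maff were the other members called higher.

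Chaperone genes of the cytosol and the endoplasmic reticulum were called in both directions. Of 20 heat shock genes 3 were lower (Chordc1, Hsph1 and Hsf1) and 1 higher (Hspb1), which is 15% lower beside 10.6% of all genes. Hsph1, a large nucleotide exchange factor for Hsp70, was at 158 to 187 CPM in young and 89.9 to 127 CPM in old females (-0.61 ± 0.11), and Hsf1, the transcription factor of the heat shock response, at 36.6 to 51.1 and 21.7 to 30.9 CPM (-0.72 ± 0.14). The lower count was 5 without old replicate 1, and Hspb1 (1.01 ± 0.27) was not called without old replicate 1 or 2. Of 28 endoplasmic reticulum genes 5 were lower (17.9%) and 3 higher (10.7%), beside 10.6% and 10.5% of all genes. Pdia4, a disulfide isomerase, was at 30.5 to 38.4 CPM in young and 14.6 to 23.4 CPM in old females (-0.75 ± 0.14, adjusted p = 0.00353), and Sdf2l1, a co-chaperone of the same compartment, at 7.73 to 9.14 and 3.96 to 5.59 CPM (-0.74 ± 0.13). Day 1 males had differences of -0.53 and -0.66 for this pair. Calr, Hyou1 and Pdia6 were the other genes lower, and Dnajb9, Herpud1 and P4hb were higher. Without 1 library the lower count ran from 2 (without young replicate 3 or old replicate 3, where 2 were also higher, or young replicate 4) to 8 (without young replicate 2), and the higher count was 0 without young replicate 1.

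Synaptic genes were called lower more often than higher in old females. All 70 were tested, 14 were called lower and 1 higher, 16 had a difference above 0, and the median was -0.16, beside -0.06 in control females and -0.06 in day 1 males. Grm2, a presynaptic glutamate receptor of dentate granule cells, was at 69.4, 62.0, 67.9 and 59.6 CPM in young and 27.3, 36.0, 40.6 and 27.5 CPM in old females (-0.97 ± 0.13, adjusted p = 0.000746). Grm7, another presynaptic glutamate receptor, was at 42.2, 37.4, 36.2 and 39.0 CPM in young and 21.7, 25.4, 28.7 and 19.4 CPM in old females (-0.69 ± 0.12), against 35.0 to 46.0 CPM in all 8 controls and 33.7 to 43.2 CPM in all 8 day 1 males. Also called lower were the metabotropic receptor Grm3, the ionotropic subunits Grin2b (467 ± 43 to 369 ± 31 CPM, SD) and Grik2, and the release machinery genes Rims1, Stx1a and Unc13a. Cacng3, Gabra2, Gabrb1, Homer2 and Shank1 were lower too. Nlgn1, the member called higher (0.32 ± 0.10), was lost without any of young replicates 1, 3 and 4 and old replicates 1 and 4. Camk2a, the most abundant member, was at 3810 to 4430 CPM in young and 3380 to 3910 CPM in old females and was not called (-0.19 ± 0.10). The count of 14 fell to 6 without the choroid-carrying libraries. Summed markers of CA1 and CA3 pyramidal cells were at 767 to 859 CPM in young and 707 to 841 CPM in old females, and none of the 9 tested was called.

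Chromatin regulators were called lower more often than higher in the fit of all libraries, but not in every other fit. Of 61 tested genes 9 were lower (14.8%) and 3 higher (4.92%), beside 10.6% and 10.5% of all genes. The median was -0.06 in day 1 females and the same in controls. Smarca4, the ATPase of a remodelling complex, was at 151 to 191 CPM in young and 102 to 132 CPM in old females (-0.57 ± 0.10), and Setd1b, a histone H3 lysine methyltransferase, at 49.4 to 70.9 and 32.3 to 45.5 CPM (-0.59 ± 0.13). Kdm3a, a demethylase induced by low oxygen, was higher, at 29.7 to 33.6 CPM in young and 42.8 to 58.2 CPM in old females (0.63 ± 0.10), as were Kdm5a and Nsd1. Hdac1, Hdac4, Hdac5, Kdm2b, Kmt2a, Kmt2c and Kmt2d completed the 9. This count was 4 without young replicate 1, young replicate 3 or old replicate 3, 5 without young replicate 4 and 2 without the choroid-carrying libraries, where 3 were higher. As many were higher as lower without young replicate 3 or old replicate 3 (4 each) and with the correction for exon length (5 each). The higher count was 1 without young replicate 1.

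Genes of the oligodendrocyte lineage were called in both directions. Of 5 tested precursor markers Gpr17 and Cspg4 were lower and 0 higher. In day 1 males 2 of the 5 were also called lower with age and 0 higher, and in control females 1 was lower and 0 higher. Cspg4, the NG2 proteoglycan, was at 32.9, 29.5, 36.7 and 34.3 CPM in young and 18.1, 29.1, 27.4 and 21.7 CPM in old females (-0.47 ± 0.14). Gpr17 was the one marker called lower without young replicate 1, 3 or 4 or old replicate 1 or 4, and without old replicate 4 another marker was called higher. The summed precursor markers were at 145 to 157 CPM in young and 104 to 133 CPM in old females on day 1, and at 148 to 164 and 112 to 140 CPM in controls. Of 27 tested myelin genes 5 were higher (18.5%) and 3 lower (11.1%), beside 10.5% and 10.6% of all genes, with a median of -0.11. Apod, a lipid-binding protein of oligodendrocytes, was at 427, 475, 391 and 337 CPM in young and 1010, 1060, 1030 and 567 CPM in old females (1.14 ± 0.18), and Opalin, a membrane protein of myelin, at 2.95 to 4.60 and 5.54 to 9.24 CPM (0.79 ± 0.18). Opalin, below 5 CPM in every young library, passed the filter through the old libraries. Ugt8a, which makes the myelin lipid galactosylceramide, was at 6.57 to 9.40 CPM in young and 3.65 to 4.89 CPM in old females (-0.69 ± 0.15), far below the 22.9 to 42.9 CPM of the 8 controls, and its age by sepsis contrast was -1.14. Fa2h and Gjc3 were the other members lower, and Bcas1 and Trf were also higher, while Mbp, the most abundant member, was not called (0.16 ± 0.11). Without young replicate 4, 5 were higher and 5 lower.

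Astrocytes and vessels each held genes in both directions. Of 12 astrocyte markers Gfap, Aldh1l1 and S100b were higher and Gja1 lower. Gfap, the intermediate filament of reactive astrocytes, was at 441, 435, 403 and 423 CPM in young and 926, 987, 869 and 788 CPM in old females (1.06 ± 0.09, adjusted p = 5.06e-05). Control females were at 285 to 528 CPM when young and 581 to 775 CPM when old, and day 1 males at 367 to 493 and 325 to 507 CPM, so old females lay above young ones with and without sepsis, and the age by sex contrast of Gfap, 1.12, was called. Gja1, the main connexin of astrocytes, was at 87.1 ± 2.8 CPM in young and 61.7 ± 2.8 CPM in old females (SD, n = 4). Of 14 endothelial markers 5 were lower and 2 higher. Abcb1a, a drug efflux pump of the blood-brain barrier, was at 22.0, 17.8, 14.1 and 14.1 CPM in young and 9.01, 9.72, 12.4 and 8.25 CPM in old females (-0.72 ± 0.16), and Kdr, the VEGF receptor, at 5.56 to 9.75 and 4.48 to 4.93 CPM (-0.54 ± 0.15). Ly6a and Slco1a4, an organic anion carrier, completed the 5 with Ly6c1. Cdh5, the endothelial cadherin, was higher, at 10.3 to 15.1 CPM in young and 22.7 to 37.2 CPM in old females (1.01 ± 0.16), as was Mfsd2a (0.40 ± 0.12), a lipid carrier of the barrier. The higher count was 1 in each fit without 1 library other than that without old replicate 3. The summed endothelial markers overlapped, at 358 to 462 and 295 to 425 CPM. In day 1 males 5 of the 14 endothelial markers were also called lower with age and 0 higher (median -0.24). In control females 1 was called lower and 0 higher (median 0.13). Of all 11686 genes 240 were called lower in day 1 males and 61 in control females.

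Most genes of the respiratory chain and of the ribosome had a difference above 0, but few were called. Of 75 tested nuclear genes of the respiratory chain and the ATP synthase, 69 had a difference above 0, beside 54.3% of all genes, and the median was 0.20, while 9 were called higher (12%, beside 10.5% of all genes) and 1 lower. Of 73 ribosomal protein genes 70 were above 0, with a median of 0.32, and 7 were called higher (9.59%) and 0 lower. Without 1 library these counts of genes called higher ran from 3 (without young replicate 1 or old replicate 4) to 15 (without young replicate 2) for the respiratory chain, and from 3 (without old replicate 4) to 18 (without young replicate 2) for ribosomal proteins. Both counts were 2 without the choroid-carrying libraries. Sdhb, a subunit of complex II, was at 84.4 to 125 CPM in young and 134 to 186 CPM in old females (0.59 ± 0.13). The transcripts of these lists are short, and the median difference of all genes fell with exon length, from 0.15 in the shortest 2317 genes to -0.05 in the longest 2317, a trend that was -0.02 to 0.06 in control females. With the correction for exon length, 3 genes of the respiratory chain and 5 ribosomal protein genes were called higher. The median of all genes also fell with GC content, from 0.12 in the lowest 2317 genes to -0.04 in the highest 2317. In control females it fell from 0.16 to -0.15. The summed level of the 13 mitochondrially encoded genes was 19900 to 29800 CPM in young and 25500 to 39500 CPM in old females. Of 35 genes of glucose, insulin and fatty acid use, 7 were higher and 1 lower: Angptl4, a lipase inhibitor of fasting, was at 6.63, 8.56, 8.99 and 7.49 CPM in young and 23.1, 29.6, 18.9 and 10 CPM in old females (1.18 ± 0.25), and Plin2, a lipid droplet coat protein, at 4.23 to 5.06 and 5.74 to 12 CPM (0.83 ± 0.19). The count of 7 was 3 without young replicate 1, 4 without young replicate 4 and 1 without the choroid-carrying libraries. Of 23 sterol genes Lss (0.77 ± 0.09) and Insig1 (0.78 ± 0.12) were higher and Ebp (-0.48 ± 0.14) lower. These are 8.7% and 4.35% of the list, beside 10.5% and 10.6% of all genes. Ebp was not called without young replicate 1, 2 or 3 or old replicate 1 or 4.

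The genes with the largest age by sepsis contrasts include several already described. At a mean of at least 20 CPM and an adjusted p below 0.05 the 5 highest were Ctla2a, Mt2 (1.53), Map3k6 (1.51), Cdkn1a (1.44) and Pnpla2 (1.43). Pnpla2, the first lipase of stored fat, was at 47.5, 61.1, 52.7 and 40.3 CPM in young and 97.8, 108, 99.7 and 91.2 CPM in old females on day 1, and at 14.3 to 26.1 and 11.6 to 14.9 CPM in controls, so both ages were above their controls and the old further above. Map3k6, a kinase of stress signalling, was at 12.6 to 14.6 CPM in young and 24.3 to 42.3 CPM in old females on day 1, and at 1.86 to 4.47 and 1.47 to 2.61 CPM in controls. The 5 lowest were Lct (-1.98), Gpr17, Cbfa2t3, Chordc1 and Banp (-1.27). In age by sex the highest were Lcn2, Hba-a1 (1.73), Ctla2a and Hba-a2 (1.70), and the lowest Cbfa2t3, Lct (-1.52), Gpr17 and Banp (-1.28). Hba-a1 was at 15.5 to 23.4 CPM in young and 28.9 to 71.0 CPM in old females on day 1, and at 19.0 to 34.6 and 8.98 to 24.0 CPM in males, so the means of the ages were ordered in opposite ways in the sexes.

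The largest differences of all, however, lay in neighbouring genes of chromosome 4 and were the same in every female group. Of the genes whose 11 old female libraries (control, day 1 and day 4) were all below 0.15 times the lowest of the 12 young female libraries, and with a mean of at least 1 CPM in these, there were 8, and all lie between 41893388 and 42242685 of chromosome 4 on the plus strand of GRCm38. They are Gm10600, Gm13301, Gm13302, Gm13304, Gm17081, Gm17167, Gm21541 and Gm5859, 4 of them annotated as pseudogenes, and 4 of the 8 were among the 11686 tested. Some of them share sequence on the same strand, as Gm17167 and Gm13301, whose exons overlap over 53.6% of the length of Gm13301, so reads may be split between them. Gm17167 was at 22.9, 30.2, 23.2 and 16.7 CPM in young day 1 females and at most 0.0385 CPM in old ones, a difference of -4.56 ± 0.18, and the control difference was -4.10. Gm5859 was at 16.9 to 22.7 CPM in young day 1 females and at most 0.0404 CPM in old ones. No gene met the same rule in the opposite direction. In males the split did not follow age, since old control and old day 1 males were at 14.9 to 20.5 CPM of Gm17167, within the range of the young, while old males of day 4 were at most at 0.0659 CPM. Old females and old males of day 4 thus differed from the other old males in a way that the labels do not explain. The methods of the study name 1 supplier for all mice and no substrain. Age and any other difference in origin between the old and the young females cannot be told apart, for these genes or for any other difference between old and young females given above, the contrasts with sepsis and sex included.

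**Figure D5:**
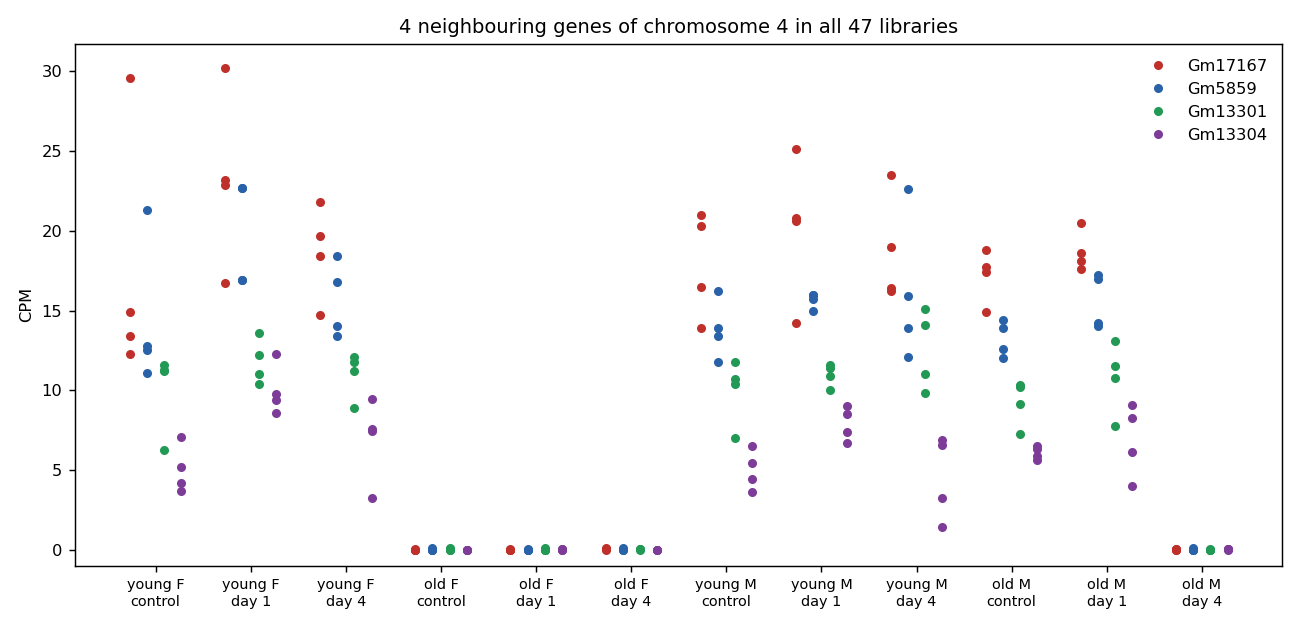
Each point is the level in CPM of 1 of 4 neighbouring genes of chromosome 4 (Gm17167, Gm5859, Gm13301 and Gm13304, by colour) in 1 of the 47 libraries, with the 12 groups of the series (F, females; M, males) along the x axis. All 4 genes lay at the foot of the plot in the 3 groups of old females and in old males of day 4, and above it in each library of the other 8 groups.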

How the data were processed

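Hippocampal RNA of single mice was sequenced from polyadenylated transcripts. The authors aligned the reads to mm10 with STAR, counted and normalised them in Partek Flow by the trimmed mean of M values (TMM), and deposited CPM per gene and library. Sources used here give no versions of these tools. The deposited values held 65.8% to 83.4% whole reads at a tolerance of 0.05 read, which left no recovered counts to test. Every column of the table had a sample (0 columns without one).

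Values were taken as log2(CPM + 1) for the 11686 genes that averaged 5 CPM or more in the 8 libraries, and each pair or quartet of groups was fitted in limma 3.58.1 (lmFit and eBayes with trend, R 4.3.3, the data.table package, version 1.17.8). All p-values are 2-sided. Calls were made at p below 0.01 before adjustment, as the study did, with the Benjamini-Hochberg adjusted p over all 11686 genes beside it. Age by sepsis and age by sex are contrasts of 4 groups of 4 libraries, and both include the 8 day 1 female libraries. The fold changes carry the pseudocount of 1 and understate changes of low genes. The filter took the mean of both ages, so a gene below 5 CPM in 1 age could pass through the other age alone. Lists and figures were made with Python 3.11.15, pandas 2.3.3, numpy 2.4.6 and matplotlib 3.10.9, and the fits were tested on simulated data. Each library is 1 mouse of a group. The p-values set the difference between groups of 4 against the spread between mice, which limma moderates over all genes.

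Genes are named by rule: the 10 largest increases and decreases at an adjusted p below 0.05, without overlap and with a mean of at least 20 CPM, the 5 highest and 5 lowest age by sepsis and up to 4 highest and lowest age by sex contrasts under the same limits on p and mean, the 2 highest and 2 lowest called members and 1 abundant uncalled member of each list, the 18 glucocorticoid-induced genes and the complement and immune genes that the study names. Other genes are said to be chosen after their values were seen. Some members counted in the lists are not reported here by name. The members and the gene lists were chosen with earlier results of these data known. Promoters are printed for the 4 named genes of largest difference that had a matched RefSeq entry and did not lie on chromosome 18. Gene positions, exon overlaps and lengths come from the GENCODE annotation of GRCm38.p6, matched by symbol. Whether counting used strand is stated in none of the sources used here, so reads of overlapping genes may be shared.

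The alternatives were a pseudocount of 0.5 or 5, no filter, a mean of at least 50 CPM, an unmoderated F test, all 12 groups in 1 fit, median of ratios scaling, a correction for GC content (lowess, span 0.3), the replicate number as a block and leaving out each library. A correction for exon length and a fit without libraries whose choroid plexus markers summed to over 1000 CPM were added after seeing the data.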

Additional observations from a re-analysis of the deposited data

Results flagged for a closer look

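Single libraries stood apart from the other 3 of their group, by a gap above the 95% critical share of Dixon for the range of 4 values, in 13 of 202 sets of 4 libraries looked at among the named genes. Chance alone gives about 1 in 20 such flags. In young females the flagged libraries were replicate 2 for Ctss (highest, gap 0.968 of the range) and Fosl2 (lowest, 0.912), replicate 3, always as the highest, for Arhgef3 (0.858), Hsf1 (0.834) and Fkbp5 (0.833), and replicate 4, always as the lowest, for Jun (0.938), Zmat3 (0.868) and Arl4d (0.838). In old females they were replicate 1 for Hspa5 (highest, 0.850) and Stat2 (lowest, 0.850), replicate 3 for Errfi1 (lowest, 0.884), and replicate 4, as the lowest, for Apod (0.899) and Ctla2a (0.847). Young replicates 3 and 4 and old replicate 3, with 7 of these 13 flags, are also the libraries that carried choroid plexus, and the part of choroid plexus in the flags was not tested. The Apod value of old replicate 4, 567 CPM against 1010 to 1060 CPM in the other 3, was still above all 4 young libraries.

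The age difference on day 1 differed from that in control females for 1024 genes. Among those named, the contrast on the log2 scale was above 0 for the protease inhibitor Ctla2a (2.42), the metallothionein Mt2 (1.53), the kinase Map3k6 (1.51), the cell cycle inhibitor Cdkn1a (1.44) and the lipase Pnpla2 (1.43). It was below 0 for Lct (-1.98), Gpr17 (-1.53), Cbfa2t3 (-1.52), Chordc1 (-1.34) and Banp (-1.27).

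The age difference on day 1 differed between females and males for 1353 genes. The contrast was above 0 for Lcn2 (2.44), the alpha globins Hba-a1 (1.73) and Hba-a2 (1.70) and for Ctla2a (1.72), and below 0 for Cbfa2t3 (-1.79), Lct (-1.52), Gpr17 (-1.41) and Banp (-1.28). For Lcn2 the highest young male library, at 98.1 CPM against 23.6 to 25.7 CPM in the other 3, raised the young male mean.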

How the results depend on the processing

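Of 101 named genes 77 were called, and 45 kept their call and direction in every setting with a value, while 0 differences changed sign when called. With a mean of at least 50 CPM, 746 genes were called on day 1 (750 at adjusted p), 30 in controls, 246 in age by sepsis, 137 in males and 371 in age by sex, from 3691 tested. The unmoderated F test gave 1540 at adjusted p. Without the choroid-carrying libraries the counts were 1269 on day 1 (663 at adjusted p; 91.5% of the 1269 were also among the main calls), 627 in age by sepsis and 564 in age by sex. No filter gave 459 in controls and 1623 in age by sepsis, and all 12 groups in 1 fit gave 705, 1663 and, in males, 213. With the GC content correction the counts were 2705 on day 1, 165 in controls, 1300 in age by sepsis and 1630 in age by sex. The cause of these shifts was not tested. Leaving out 1 library gave 1669 to 2730 on day 1 (1267 to 2960 at adjusted p), 71 to 248 in controls, 749 to 1144 in age by sepsis, 206 to 663 in males and 1068 to 1503 in age by sex, the lowest day 1 counts without young replicate 1.

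Same-numbered old and young libraries did not deviate together on day 1 (r = 0.02, -0.08, 0.03 and -0.07). No old day 1 library correlated best with the young library of its own number. In control females replicates 1 and 3 did so (r = 0.15 and 0.36). With 4 libraries per group these values cannot show whether the numbers pair the mice. With the replicate number as a block, 2071 genes were called on day 1 (1888 at adjusted p), 161 in controls, 936 in age by sepsis, 247 in males and 1206 in age by sex.

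Of 630 counts of list members under settings other than leaving out a library, 103 moved by more than 1.5 times. The unmoderated F test takes the spread of each gene alone, like the one-way ANOVA of the study. Members called higher then fell from 10 to 5 for glucocorticoids, 8 to 4 for metallothioneins and 11 to 7 for cytokine signalling. They fell from 7 to 4 for growth arrest, 7 to 3 for glucose use and 7 to 0 for ribosomal proteins. Over the settings other than the filters, 8 to 12 complement genes were called higher. The single-read value of 0.0323 to 0.0412 CPM limits the lowest genes, and 4 libraries per group limit all tests.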

Other observations

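Genes of the daily clock, chosen after their values were seen like all lists and genes of this section, were higher in old females on day 1 where called. Of 19 tested, 6 were called higher and 0 lower, with a median of 0.17, beside 0.01 in control females and 0.03 in day 1 males. Over the settings other than the filters 4 to 6 were higher and 0 to 2 lower. In control females 2 were called higher and 1 lower with age, beside 100 and 61 of all 11686 genes, and in day 1 males 1 was higher and 0 lower. Per1, a repressor of the clock that glucocorticoids also raise, was at 106, 93.4, 121 and 102 CPM in young and 163, 172, 152 and 179 CPM in old females (0.66 ± 0.09, adjusted p = 0.00120), and the age by sepsis contrast was 0.96. Cry1, another repressor, was at 10.8 to 15.8 CPM in young and 21.0 to 30.4 CPM in old females (0.79 ± 0.14), and Ciart at 7.94 to 11.9 and 18.8 to 24.3 CPM (1.01 ± 0.13). Cry2 (0.35 ± 0.08), Nr1d2 and Rora were the other members called, while Per2 (-0.14 ± 0.09), Nr1d1 (0.13 ± 0.12) and Dbp (0.24 ± 0.13) were not. The E-box letters stood in 5 of 17 promoters of this list (29.4%), beside 10.7% of all. Summed clock genes were at 1250 to 1400 CPM in young and 1480 to 1610 CPM in old females, and at 1050 to 1230 CPM in the 8 controls.

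Cirbp, an RNA-binding protein induced by mild cold, was at 41.2, 43.1, 41.2 and 44.0 CPM in young and 69.8, 79.4, 76.7 and 94.4 CPM in old females on day 1 (0.90 ± 0.10, adjusted p = 0.000302), and at 27.0 to 33.7 CPM in all 8 controls. Its relative Rbm3 was at 41.6 to 50.5 CPM in young and 55.7 to 70.6 CPM in old females (0.46 ± 0.10), and at 25.4 to 31.5 CPM in controls. Both septic ages therefore lay above the controls, the old further. In day 1 males Cirbp was at 18.9 to 50.9 CPM when young and 27.5 to 56.9 CPM when old.

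The transferrin receptor Tfrc, the entry route of iron, was at 32.6, 43.0, 34.5 and 35.6 CPM in young and 83.5, 60.0, 69.9 and 80.8 CPM in old females (0.99 ± 0.12, adjusted p = 0.000507), against 26.9 to 51.2 CPM in the 8 controls, and Tfr2 was at 8.65 to 11.7 and 18.0 to 21.2 CPM (0.92 ± 0.11). Apold1, an endothelial gene (1.64 ± 0.16), Angpt2, a ligand that loosens vessels (1.78 ± 0.37), and Lrrc32 (1.70 ± 0.29) were also higher, while of the 14 endothelial markers 5 were lower and 2 higher, with a median of -0.36.

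Of 57 tested DNA repair genes 21 were called higher, 6 lower and 30 not (median 0.19, 0.07 in controls). In controls and in males 0 were called, beside only 1.38% and 3.34% of all genes. Xpc, a sensor of DNA damage, was at 13.9 to 20.6 CPM in young and 22.7 to 26.1 CPM in old females (0.54 ± 0.12). The count of 6 was 3 without young replicate 1 and 3 without the choroid-carrying libraries. Of 28 tested genes of intraflagellar transport and the BBSome, which carry cargo along cilia, 10 were called lower, 0 higher and 18 not (median -0.18, 0.05 in controls). Bbs7 was at 7.45 to 9.04 CPM in young and 4.09 to 5.39 CPM in old females (-0.69 ± 0.13), and at 8.09 to 12.4 CPM in controls. The 10 were 9 to 11 over the settings other than the filters, and 9 of the 28 were called below 0 in age by sepsis, beside 567 of all 11686 genes. Mettl3, the enzyme that methylates adenosine in RNA, was at 11.2 to 13.5 CPM in young and 4.56 to 6.77 CPM in old females (-0.95 ± 0.14), although exons of Tox4 covered 18.4% of its length. Exd2, an exonuclease, was at 77.3 to 94.3 CPM in young and 31.3 to 50.1 CPM in old females (-1.01 ± 0.13).

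Of 28 genes of fatty acid oxidation 8 were higher and 1 lower, with Acot1 at 13.3 to 16.9 CPM in young and 21.1 to 33.3 CPM in old females (0.65 ± 0.14); the count of 8 was 5 without young replicate 1 and 3 without the choroid-carrying libraries. Of 25 genes of mitochondrial tRNA charging and translation 6 were lower and 1 higher, and the 6 were 3 without the choroid-carrying libraries. Of the marker lists not yet described, 2 of 10 interneuron markers (Vip and Npy), 1 of 6 leptomeningeal markers (Dcn) and 1 of 3 thalamus and habenula markers (Prkcd) were higher, 2 of 8 nuclear and long non-coding RNAs (Miat and Mirg) were lower, and 0 of 7 mural, 0 of 7 choroid plexus and 0 of 2 ependymal markers were called.

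Several processed pseudogenes were far lower in old females, with the lowest level of Gm12671 in young libraries at 5.77 CPM and the highest in old ones at 1.23 CPM (-3.23 ± 0.37). Young control females spanned 0.00443 to 19.0 CPM for the same gene, and reads shared between copies make such values uncertain.

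Ide, insulin-degrading enzyme, split the groups in part like the genes of chromosome 4. Its median was 33.3, 31.4 and 33.6 CPM in old control, day 1 and day 4 females and 29.0 CPM in old males of day 4, against 64.0 and 61.0 CPM in young control and day 1 females, 37.6 CPM in young females of day 4 and 60.2 to 71.0 CPM in the other 5 male groups.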
